A study of Rattus norvegicus with 25 samples.

Results

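The interval described here runs from postnatal day 8 (P8) to postnatal day 14 (P14) in the medial prefrontal cortex of the rat. The change is read from 10 of the 25 RNA sequencing libraries of the series: 5 from P8 and 5 from P14. They were chosen by the age in their labels and not by any measured value. The spread used in the tests of change was estimated from all 25 libraries fitted together. All libraries came from Wistar rats labelled wild type, with no treatment named, and the remaining 15 libraries are from P21, P35 and P70. The series compared these ages to follow transcript levels through postnatal development. Levels are in FPKM, which divides the reads of an ID by its transcript length and by the size of the library. Of 29516 Ensembl gene IDs in the table, 14128 were tested, namely those that reached 1 FPKM in 5 or more libraries of any age. Just inside this limit, 227 IDs reached 1 FPKM in exactly 5 libraries, with a median level of 0.67 FPKM, and just outside it 224 IDs did so in 4 libraries, with a median of 0.584 FPKM. Whether every library is a separate animal is not stated in the labels, nor is the sex, so p-values measure the spread between these samples, which may be technical.

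In the rodent cortex this is a time of dense synapse formation, when axons and dendrites arborise, inhibitory transmission matures, glial cells differentiate and the myelination of axons begins. The birth and migration of cortical neurons, which dominate earlier stages, are largely over by then. The deposited table names genes by Ensembl ID alone, and 0 of its IDs matched the reference table used here. Transcripts are therefore described by level, direction and timing, and no member of a pathway or cell type can be named. Markers of prefrontal cortex or of neighbouring tissue were not tested for the same reason. In a bulk sample, fewer cells of a type and less RNA per cell cannot be told apart.

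Both ages were sequenced to a like depth, and the P14 libraries were the more variable group. Whole reads could be read back from the FPKM steps of 9595 tested IDs, and summed to between 3657480 and 6833343 reads per library. P14 replicate 5 was the shallowest, at 0.706 of the depth of the median library of the series, and P14 replicate 2 the deepest, at 1.21. The same pair had the lowest mean correlation with the other libraries of their age, 0.919 and 0.906, against 0.947 to 0.951 for the other P14 libraries and 0.954 to 0.972 at P8. The median SD of an ID between libraries was 0.15 log2 units at P8, 0.242 at P14, and 0.171 at P14 without that pair. No library measure separated the ages after correction. The number of IDs at 1 FPKM or more averaged 13325 ± 102 at P8 and 13084 ± 231 at P14 (SD, n = 5; exact two-sided permutation p = 0.0476, adjusted p = 0.286 over 6 measures).

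From P8 to P14 about as many transcripts rose as fell. With limma on log2(FPKM + 0.5), 1925 IDs rose, 13.6% of those tested, and 2165 fell, 15.3%, at an adjusted p under 0.05. Most moved little. The median rise was 0.55 log2 units and the median fall was -0.53, beside a median of -0.06 over all IDs tested and a median SE of 0.137. A change of at least 1 log2 unit was called for 249 rises (1.76%) and 254 falls (1.8%), and one of at least 2 units for 11 rises and 28 falls. The 5 libraries of each age did not overlap at 1344 IDs that were higher at P14 (9.51%) and 1495 that were lower (10.6%). Among the large changes, 237 of 249 rises and 208 of 254 falls had no overlap. Fitted on the 10 libraries of the 2 ages alone, 1697 IDs rose and 1927 fell. With libraries that share the first number of their title treated as a block, 1430 rose and 1541 fell. Without P14 replicates 2 and 5, the counts were 1568 rises and 1980 falls, and 255 and 244 by at least 1 log2 unit. The 4 IDs named below then changed by 3.26 (ENSRNOG00000032450), 2.39 (ENSRNOG00000005457), -3.15 (ENSRNOG00000012031) and -7.4 (ENSRNOG00000034416) log2 units, all still called. With FPKM totals made equal between libraries, 396 IDs rose and 109 fell, so rises made up 78.4% of calls against 47.1% as deposited, and the median change of all IDs moved to 0.18.

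**Figure D1:**
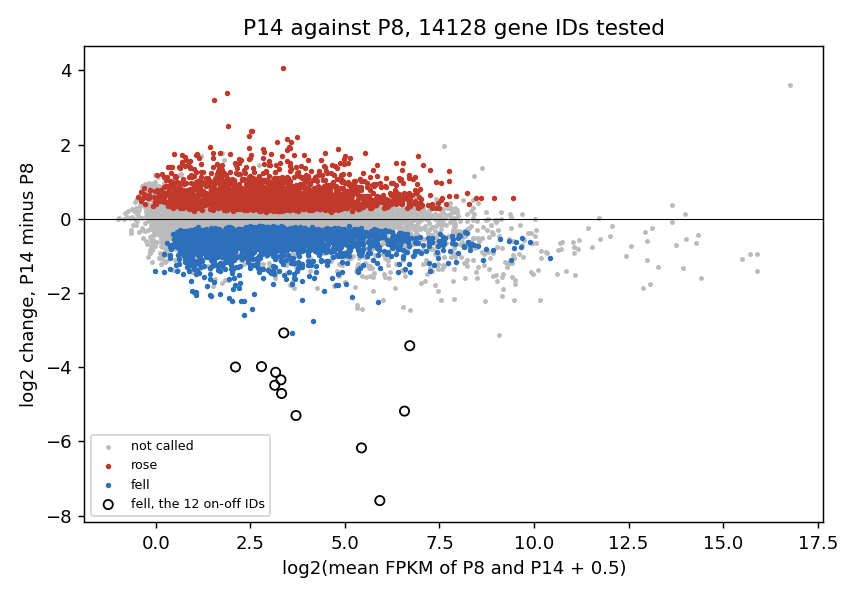
Log2 change from P8 to P14 (vertical axis) against the log2 mean level of both ages in FPKM + 0.5 (horizontal axis), 1 point for each of 14128 gene IDs. Red and blue points passed limma's adjusted p of 0.05 as rises and falls, and the 12 open circles, at -3.08 to -7.59, are IDs that were high or low together by library.

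The largest rise under the selection used here was an ID that was almost undetected at P8. ENSRNOG00000032450 was at 0.155, 0.139, 0.191, 0.0795 and 0.116 FPKM in P8 replicates 1 to 5, which is 4 to 10 reads per library. At P14 it was at 5.25, 5.78, 5.64, 5.86 and 8.45 FPKM, or 239 to 346 reads. The lowest P14 library stood 27.5 times above the highest P8 library, and the means differed 45.5-fold, from 0.136 ± 0.0418 to 6.19 ± 1.28 FPKM (SD, n = 5). The fitted change was 3.38 ± 0.14 log2 units (SE; limma adjusted p = 5.54e-14), a smaller figure because the pseudocount of 0.5 exceeds the level at P8. With only the 10 libraries of both ages in the fit, the limma adjusted p of this change was 1.71e-07. P14 replicate 5 was the highest of the P14 libraries. The level rose further, to means of 8.77 FPKM at P21, 10.6 at P35 and 8.38 at P70, and the step from P14 to P70 was 0.4 ± 0.14 log2 units (SE; limma adjusted p = 0.0243). Another ID below the level limit for named IDs followed the same course, from between 0 and 0.1 FPKM at P8 to between 3.98 and 6.9 FPKM at P14, also with its highest value in replicate 5.

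The next rise started from a low level that varied 35.6% between P8 libraries (coefficient of variation) and had not reached its later level by P14. ENSRNOG00000005457 was at 0.662, 0.592, 0.793, 0.296 and 0.905 FPKM in the P8 libraries. At P14 the same ID was at 6.29, 6.94, 4.89, 5.22 and 6.17 FPKM, with no overlap. The change was 2.49 ± 0.16 log2 units (SE; limma adjusted p = 5.77e-11), or 9.09-fold between means. Its mean went on to 11.2 ± 1.89 FPKM at P21, 15.9 ± 2.46 by P35 and 14.2 ± 3.07 by P70 (SD, n = 5), and the P70 level was above that at P14 by 1.18 ± 0.16 log2 units (SE; limma adjusted p = 2.54e-06). That comparison shares the P14 libraries with the first, so the values stand side by side only. Over all tested IDs, 4905 (34.7%) differed between P14 and P70, of which 1583 (11.2%) were higher at P70 and 3322 (23.5%) lower.

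The other 13 of the 15 largest rises spanned low to moderate levels. Their changes were between 1.85 and 2.37 log2 units, and the means of the 15 differed 3.94-fold to 45.5-fold between ages. The one with the smallest SE went from 2.8 to 4.74 FPKM at P8 up to 15.9 to 20.5 FPKM at P14 (log2 change 2.15 ± 0.1 SE; limma adjusted p = 3.53e-13). The most abundant went from 10.2 to 12.4 FPKM at P8 up to 45.6 to 60.4 FPKM in P14 replicates 1 to 4, and to 22.8 FPKM in replicate 5. Replicate 5 was the lowest P14 library in 6 of the 15. It was the highest in others, among them ENSRNOG00000032450 (8.45 FPKM) and the fifth largest rise (10.4 FPKM), so it was not low throughout. In the ninth largest it was at 7.06 FPKM against 17.8 to 31.6 in the other P14 libraries, which left the nearest libraries of the 2 ages 1.47-fold apart. The shallowest P21 library, replicate 5, was low for the same ID, at 9.71 FPKM against 22.3 to 26.3 in the other P21 libraries. Whether the depth of these libraries plays a part was not tested.

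The rises differed in how the P14 level compared with that at P70. The fifth largest was at 1.14 to 2.02 FPKM at P8 and at 7.05 to 10.4 at P14. Its mean was 8.68 FPKM at P14 and 9.05 FPKM at P70, with higher means of 12.9 at P21 and 12.2 at P35. Those 2 ages were not tested against P14 or P70. Their libraries, at 9.37 to 15.1 FPKM for P21 and 9.17 to 15.3 for P35, overlapped with those of P14. The difference between P14 and P70 was 0.01 ± 0.18 log2 units (SE; limma adjusted p = 0.978). The fourth largest averaged 1.34 FPKM at P8, 9.04 at P14, 15.8 at P21 and 32 at P35. Its P70 mean of 25.1 FPKM lay above the P14 mean by 1.49 ± 0.27 log2 units (SE; limma adjusted p = 0.000111). Over the 15 rises the step from P14 to P70 ran from -0.19 to 1.49 log2 units.

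**Figure D2:**
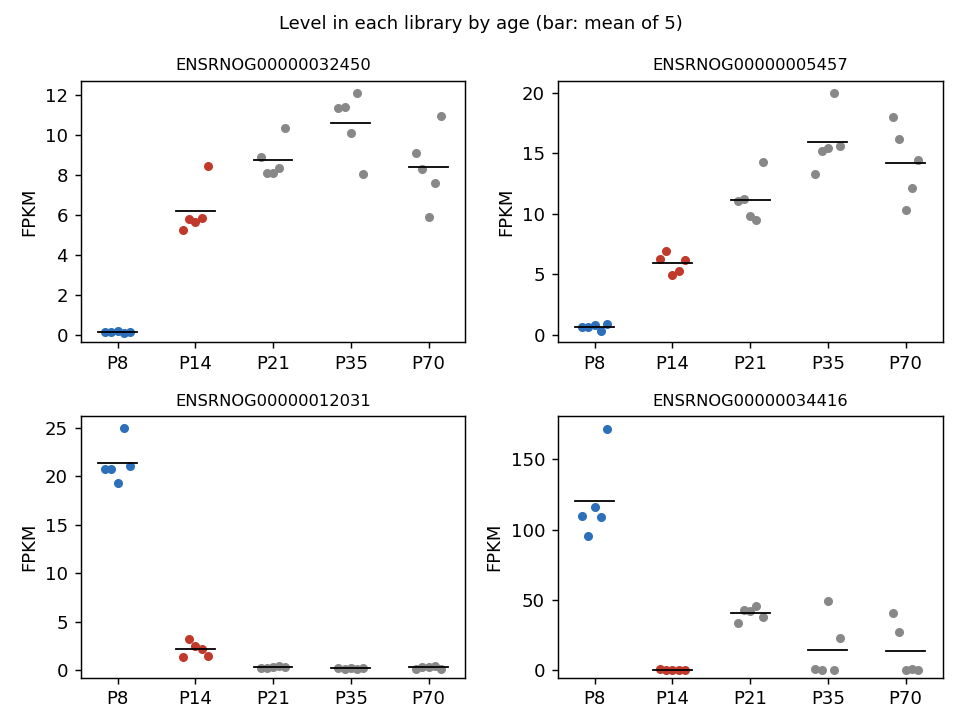
FPKM in each of the 25 libraries by age for 4 gene IDs, with a bar at the mean of 5 libraries. The 2 rising IDs have no overlap between P8 (blue) and P14 (red). ENSRNOG00000012031 fell from 19.3 FPKM or more to 3.22 or less, while ENSRNOG00000034416 was near 0 at P14, high again at P21 and split within P35 and P70.

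The largest fall outside a group of on-off IDs described further on was steep and went on after P14. ENSRNOG00000012031 was at 20.7, 20.7, 19.3, 24.9 and 21.1 FPKM in the P8 libraries, or 468 to 656 reads. At P14 it was at 1.38, 3.22, 2.47, 2.14 and 1.48 FPKM, or 27 to 101 reads, so the nearest libraries of the 2 ages were 5.97-fold apart. The log2 change was -3.09 ± 0.15 (SE; limma adjusted p = 7.79e-13), a 9.97-fold fall of the mean. The level was 0.281 ± 0.0741 FPKM at P21 and 0.272 ± 0.113 FPKM at P70 (SD, n = 5). Its step from P14 to P70 was -1.74 ± 0.15 log2 units (SE; limma adjusted p = 5.72e-09).

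This ID led 15 falls ranked in the same way after 12 IDs of another kind, described next, had been set apart, a choice made after their values were seen. The 15 falls were 3.28-fold to 9.97-fold between means, or -1.75 to -3.09 log2 units. The most abundant of them was also the most even: it was at 99.6, 91.3, 91, 106 and 94.5 FPKM at P8 and at 17.8, 19.5, 20.1, 20.6 and 21 FPKM at P14. Its libraries varied by 6.47% and 6.31% (coefficient of variation), and the change was -2.26 ± 0.1 log2 units (SE; limma adjusted p = 1.55e-13). It continued to 8.16 FPKM at P21 and 6.05 at P70. Another even one went from 5.99 ± 0.476 to 1.25 ± 0.127 FPKM (SD, n = 5) and had reached 0.359 FPKM by P70. At the other end, an ID that went from 25.4 to 63.2 FPKM at P8 to 3.34 to 17.7 FPKM at P14 then held that level, with means of 11.2, 12.8 and 11.7 FPKM at P21, P35 and P70 (log2 change from P14 to P70 0.03 ± 0.41 SE; limma adjusted p = 0.959). The highest P14 library was replicate 1 in 6 of these 15 falls and replicate 2 in another 6.

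The largest falls by size were of a different kind. Of the 15 largest, 12 were also high in some and low in other libraries of a single later age, and they are called on-off IDs here. In the P14 libraries 11 of them ranged from 0 to 6.59 FPKM, and the other was at 10.1 to 23 FPKM, against 84.5 to 454 FPKM at P8. ENSRNOG00000034416, the largest, was at 110, 95.2, 116, 109 and 172 FPKM at P8, or 103 to 223 reads. At P14 it was at 0.876 FPKM in replicate 1, which is 1 read, and not detected in replicates 2 to 5. Every P8 library thus stood far above every P14 library. At P21 it was back at 33.7, 42.6, 42.2, 45.6 and 37.6 FPKM. At P35 it was at 49.3 and 22.9 FPKM in replicates 3 and 5 and at 0.845 FPKM or listed at 0 in replicates 1, 2 and 4. The P70 libraries split too, with 40.4 and 27.1 FPKM in replicates 1 and 2, against 0.774 FPKM or listed at 0 in replicates 3, 4 and 5. Its fitted change from P8 to P14 was -7.59 ± 1.19 log2 units (SE; limma adjusted p = 3.56e-05), and -9.55 with a pseudocount of 0.1, so the size rests on the pseudocount. This SE includes the split within P35 and P70. With only the 10 libraries of P8 and P14 in the fit, the limma adjusted p was 1.71e-07.

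The summed level of the 12 IDs fell into separate ranges by library. They were picked after their values were seen, as those of the 15 largest falls that spanned at least 1.5 log2 units within P35 and within P70, so the p-values given for them are descriptions and support nothing. Their summed level was 482 to 1136 FPKM in the P8 libraries, 19.6 to 29 at P14 and 215 to 424 at P21. Within P35 it was 226 and 266 FPKM in replicates 3 and 5, against 13.2 to 42.9 in the other 3 libraries. Within P70 replicates 1 and 2 summed to 336 and 277 FPKM, against 16.8 to 18 in the other 3. All 12 IDs had no overlap between these high and low libraries at either age, which the choice of the IDs and of the libraries favours. In all, 14 libraries were high and 11 low, with nothing between 42.9 and 215 FPKM. The labels name no batch that runs this way. At P35, 1 first title number fell on both sides: replicate 3 was high and replicate 4 low, and both carry the number 11. Every other number shared by libraries stayed on 1 side. At P35, replicates 1 and 2 (number 10) were both low. At P70, replicates 1 and 2 (number 2) were both high, and replicates 3 and 4 (number 3) both low. Whether the split follows the title number was not tested.

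Among the other 14116 IDs, the same high and low libraries differed by at least 1 log2 unit in 2.95% within P35 and in 1.62% within P70. P35 and P70 make a fit possible with this library class beside age. In that fit 2 of the 12 still passed between P8 and P14, against 12 without the term, and ENSRNOG00000034416 changed by -1.97 log2 units (limma adjusted p = 0.00429) in place of -7.59. The class term itself passed for 13 of all IDs tested, and for 10 of the 12. ENSRNOG00000032450 changed by 3.27, ENSRNOG00000005457 by 2.71 and ENSRNOG00000012031 by -3.03 in the same fit. Since all P8 libraries are high and all P14 libraries low, the term also raises the median SE from 0.137 to 0.197, and 1190 rises and 1328 falls were called with it. Between P8 and P14 alone, age and library class cannot be told apart, for the 12 IDs or for any other ID.

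**Figure D3:**
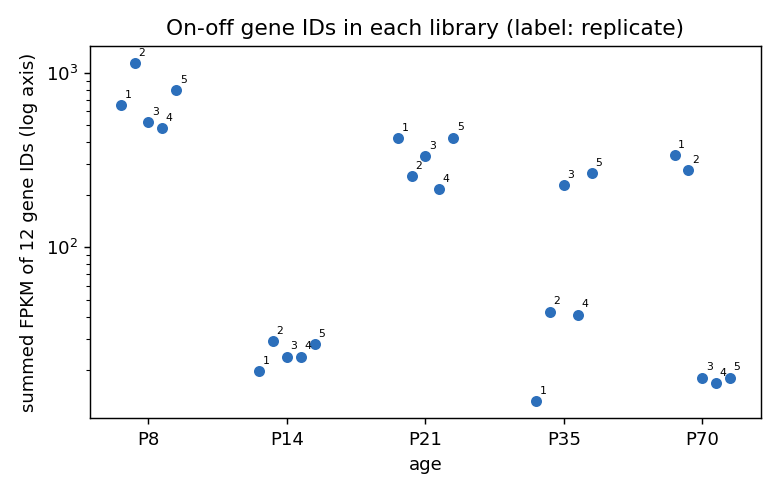
Summed FPKM of the 12 on-off gene IDs (log axis) in each library by age, with the replicate number beside each point. All P8 and P21 libraries lie at 215 FPKM or more, all P14 libraries at 29 or less, and P35 and P70 split into 2 high and 3 low libraries each.

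Without the 12 IDs, 242 falls of at least 1 log2 unit were left beside the 249 rises. The balance of large changes, all IDs included, moved with the setting: it was 383 rises to 95 falls with FPKM totals made equal, 186 to 108 among IDs averaging 5 FPKM or more, and 230 to 329 without P14 replicate 2. As deposited and outside the 12 IDs, there were 16 falls beside 11 rises of at least 2 log2 units. Of the 11 rises, 3 were above 3 log2 units. The largest of these, at 4.07 ± 1.19 (SE; limma adjusted p = 0.0117), came from an ID that was at 28.2 to 36.1 FPKM in P14 replicates 2, 4 and 5, at 1.98 in replicate 3 and near 0 in replicate 1, and so overlapped with P8.

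The shares of rises and falls differed between level classes. Among IDs with a mean under 2 FPKM over all 25 libraries, 6.69% rose and 17.5% fell. Between 2 and 5 FPKM the shares were 11.1% and 17.4%, and between 5 and 10 FPKM 14.1% and 15.5%. Between 10 and 50 FPKM the order was the other way, with 18.8% rising and 12.8% falling, and from 50 to 1000 FPKM it was 18.4% and 13.2%. An ID that goes on falling after P14 has a low mean over the series. The filter also admits an ID through the 5 P8 libraries alone, and such an ID falls in a low class. These classes are therefore not independent of direction. The share called in either direction was 24.2% in the lowest class and 28.5% to 31.6% in the 4 classes above it.

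**Figure D4:**
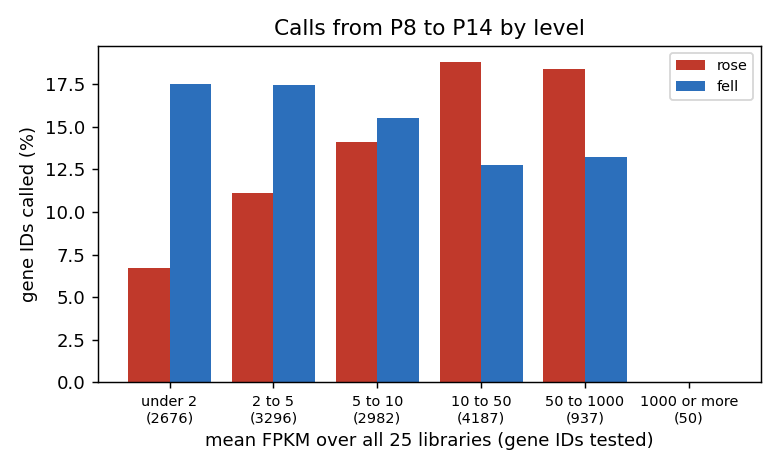
Share of gene IDs that rose (red) or fell (blue) from P8 to P14, in percent of those tested, by mean FPKM over all 25 libraries. Falls outnumber rises below 10 FPKM and rises outnumber falls between 10 and 1000 FPKM, and none of the 50 IDs at 1000 FPKM or more was called.

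Few transcripts appeared or disappeared outright. In 52 of the 14128 IDs tested every P8 library was under 1 FPKM and every P14 library at 1 FPKM or more, and in 65 of them the reverse held. The median of the first group went from 0.609 to 1.7 FPKM and that of the second from 1.85 to 0.646 FPKM, so most crossed the line by a small distance. When at least 5 FPKM was asked of the higher age, 1 ID appeared, ENSRNOG00000032450, and 4 disappeared. All 4 belong to the on-off group. The count of IDs that appeared rests on this cut: the ID described above at 3.98 to 6.9 FPKM at P14 missed it.

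On the deposited scale, a larger number of IDs was measured closely enough to bound its change. For 5926 IDs, 41.9% of those tested, the 95% confidence interval of the change (limma, not adjusted for the number of IDs) lay within 0.5 log2 units on either side of 0, and for 563 IDs (3.98%) within 0.25. Of these 5926, 303 were nonetheless called as small changes. Of 10038 IDs that were not called, 4415 had intervals reaching past 0.5 log2 units, so for them a change of that size was not excluded. These bounds depend on the scaling: with FPKM totals made equal, the median change of all IDs moved from -0.06 to 0.18 log2 units.

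The groups that moved most between P8 and P14 were followed into the later ages. Libraries of those ages entered the filter and the estimate of spread, but not the changes by which the groups were chosen. The 249 large rises had medians of 3.49 to 4.81 FPKM in the P8 libraries and 9.16 to 11.1 at P14. They were at 13.7 to 14.5 FPKM at P21, 14.9 to 17.2 at P35 and 12.1 to 17.5 at P70. A mean of at least 10 FPKM was reached by 64 of the 249 at P8, 130 at P14 and 150 at P70. The 242 large falls outside the on-off group had library medians of 6.2 to 7.87 FPKM at P8, 1.78 to 3.3 at P14, 1.48 to 2.07 at P21 and 1.29 to 1.79 at P70. The number of them at 10 FPKM or more went from 102 at P8 to 48 at P14 and 32 at P70. On the line from the P8 mean to the P21 mean over IDs that did not switch, P14 replicates 1 to 4 lay 53.8% to 57.6% of the way and replicate 5 lay at 68.7%. Of the libraries that set the line, those of P8 lay at -4.08% to 7.88%. P21 replicates 1 to 4 lay at 94.4% to 98.9% and P21 replicate 5 at 110.5%. Replicate 5 was the shallowest library at both P14 and P21, and whether depth plays a part was not tested.

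**Figure D5:**
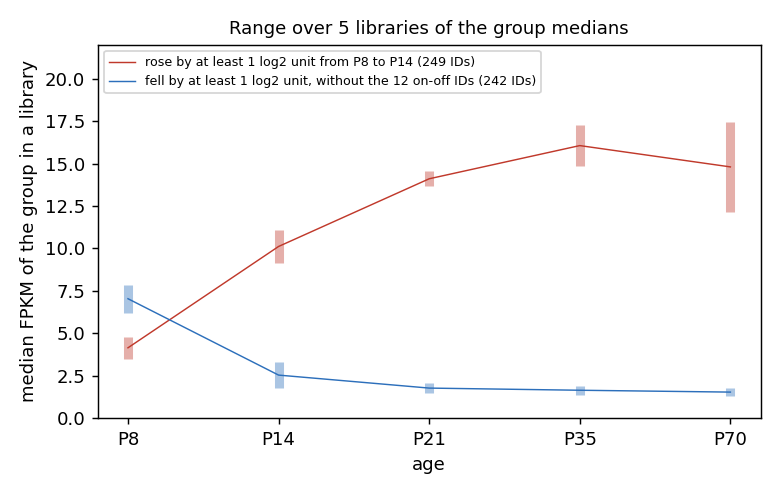
Median FPKM in a library over 249 gene IDs with a rise of 1 log2 unit or more between P8 and P14 (red) and 242 with a fall as large outside the on-off group (blue). Each bar spans the 5 libraries of an age, and the line joins the middles of the bars. The red bars reach 9.16 to 11.1 FPKM at P14 and 13.7 to 14.5 at P21, and the blue bars drop to 1.78 to 3.3 at P14.

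The most abundant IDs gave no calls, but they were measured poorly. The 50 IDs with a mean of at least 1000 FPKM held 46.6% to 75.4% of the FPKM total of the P8 and P14 libraries. None was called by limma between P8 and P14 (0 at an adjusted p under 0.05 and 0 at an unadjusted p under 0.05), with a median SE of 0.678 log2 units. ENSRNOG00000036047, the most abundant, was at 53859 to 195419 FPKM in 4 P8 libraries and listed at 0 in P8 replicate 2, and was at 34193 to 269455 FPKM at P14. ENSRNOG00000034593 was at 63096 to 77356 FPKM at P8 and at 49540 to 81172 FPKM in P14 replicates 1 to 4, but at 1120 FPKM in replicate 5. Its interval for the change ran from -3.96 to 1.15 log2 units. P14 replicate 2 was below all other 9 libraries at 34 of the 50 IDs, and P8 replicate 2 was above all others at 39. FPKM totals followed these libraries: P14 replicate 2 had the lowest total of the 10, 472548, and P8 replicate 2 the highest, 1649378.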

How the data were processed

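Per the labels' protocols, RNA from prefrontal cortex was depleted of ribosomal RNA, sequenced as single-end reads and aligned to the rn4 assembly with GSNAP. The submitters' processing notes name BWA 0.6.1, bedtools and Cufflinks without a role, and neither the annotation release nor the strand setting is stated there or in the labels. The authors deposited FPKM values, 1 column per library. Overlapping or near-identical genes carry uncertain values. Columns were matched to libraries by sample title, and replicate numbers follow accession order and pair nothing.

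IDs with at least 1 FPKM in at least 5 libraries were fitted with limma 3.58.1 (R 4.3.3) on log2(FPKM + 0.5), with the 25 libraries fitted together, a mean for each age (residual degrees of freedom 20) and a trend in the moderation. Tests were two-sided with Benjamini-Hochberg adjustment over 14128 IDs. The fit was run on simulated data with independent noise for each ID. That simulation holds no shift shared by the IDs of a library, so it cannot show how the fit handles one. A log2 change on this scale understates changes of low IDs. Reads were recovered where 95% of an ID's values were within 0.05 reads of whole multiples, in 67.9% of tested IDs. Relative depth was used to set the counting error between libraries, and whether depth has other effects was not tested. Between pairs of P8 or of P14 libraries, the squared difference in reads was at least 8.04 times the variance of counting noise. This ratio is a mean over IDs, and no libraries were merged.

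Named IDs are the 15 largest rises and 15 largest falls with no overlap between ages, at least 5 FPKM at the higher age and no spread from under 1 to at least 10 FPKM within P8 or P14. As IDs carry no names, the part of the rule that uses names and the fixed gene lists were not used, and 2 rises and 2 falls are printed as IDs. ENSRNOG00000012031 was singled out after its values were seen. Members and lists were chosen with earlier results of these data known. Alternatives were pseudocounts, filters, scalings, the 2 ages alone, no trend, a random block on the first number of the sample title, each library left out, P14 replicates 2 and 5 left out, and, added after seeing the data, the library class (high or low in the 12 on-off IDs).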

Additional observations from a re-analysis of the deposited data

Results flagged for a closer look

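Of 33 sets of 5 libraries examined for a value that stands apart, 3 held one, where about 1.65 arise by chance. For ENSRNOG00000032450 it was P14 replicate 5, with 8.45 FPKM beside 5.25 to 5.86 FPKM in the remaining P14 libraries. For ENSRNOG00000034416 it was P8 replicate 5, with 172 FPKM beside 95.2 to 116 FPKM. The third was P14 replicate 1 for this last ID, with 0.876 FPKM beside values of 0, where any detected read would stand apart.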

How the results depend on the processing

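The count of 4090 IDs called between P8 and P14 stayed within 1.5 times under 19 of 22 alternatives. It was 2533 with a mean of at least 5 FPKM (1137 falls), where 8156 IDs were tested, and 505 with FPKM totals made equal (396 rises, 109 falls), whose cause was not tested. It was 2518 with the library class as a term (1190 rises, 1328 falls), an alternative chosen after seeing the data that widens the errors. The 4905 IDs called between P14 and P70 became 3112 and 758 under the first 2 of these. A random block on the first number of the sample title lowered the count to 2971 IDs called between P8 and P14, of which 2970 were also called without it. The correlation within a number was 0.33 in that fit. The main fit treats all libraries as independent, so its p-values may be too small where libraries share a number. With 1 library left out, the count ran from 3516 to 4141, rises from 1614 to 2001 and falls from 1798 to 2458. Rises outnumbered falls without P14 replicate 3 (1947 to 1824) and without P14 replicate 5 (2001 to 1942), and also after quantile normalization (2602 to 2062) and median-of-ratios scaling (2470 to 2327). All 42 ranked IDs (15 rises, 15 falls and 12 further falls of the list without the on-off IDs) kept direction and call under each alternative that tested them, except 10 of the on-off IDs with the library class as a term. They were chosen from the same libraries as large called changes without overlap, which favours this outcome. No paired analysis was possible because replicate numbers follow accession order and no first title number recurs at another age. Low depth limits IDs with few reads: of 2591 called IDs with recovered reads, 103 had a median under 20 reads.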
